A study of Mus musculus with 11 samples.

Results

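RNA levels in Ofd1-mutant clones of the medulloblastoma line SMB21 were set against those of parental SMB21 cells treated with sonidegib, using 6 of the 11 libraries of the series. The 4 Ofd1 libraries came from 3 clones: clone R14 gave a pair of libraries (replicates 1 and 2), R16 gave replicate 3 and R25 gave replicate 4. The other group was 2 libraries of parental cells after 24 h of treatment with sonidegib. All 6 libraries share the genetic background of the line, a mouse medulloblastoma line with a Ptch mutation (strain Ptch1tm1Mps/J) that is grown as neurospheres. The clones carry in addition a mutation of Ofd1 and come from a screen for drug resistance. The labels do not say whether the clones were kept in drug, what the Ofd1 lesion of each clone is, or whether replicate libraries came from separate cultures. Titles number the R14 and the sonidegib libraries as biological replicates and say no more. For the test the R14 libraries were summed, so the p-values rest on the spread among clones and between the sonidegib libraries. If the sonidegib libraries shared a culture, their part of that spread may be technical. Genotype and drug treatment differ together between the groups, so the parts of clone origin, Ofd1 mutation and sonidegib in a difference cannot be told apart here. Untreated parental cells (3 libraries) are given beside the results as a reference level.

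In the Hedgehog pathway, the receptor Patched 1 holds back the membrane protein Smoothened. When Patched 1 is lost, Smoothened moves into the primary cilium and the Gli transcription factors switch on target genes such as Gli1 and Hhip, which drives the growth of cerebellar granule cell progenitors and of medulloblastomas derived from them. Sonidegib binds and inhibits Smoothened. Ofd1 codes for a protein of centrioles, centriolar satellites and the base of the cilium, and Sufu codes for a cytoplasmic inhibitor of the Gli factors that acts below Smoothened.

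Levels are CPM, each gene's counts relative to the library total, scaled for library composition. Values of the Ofd1 libraries are listed in the order R14 replicate 1, R14 replicate 2, R16, R25, and those of sonidegib as replicate 1, replicate 2. A mean ± SD of the clones counts R14 once, by the mean of its libraries (n = 3 clones), and that of sonidegib has n = 2. Log2 differences are clones minus sonidegib with their standard error, and a gene was called at an adjusted p under 0.05 by edgeR's quasi-likelihood test with Benjamini-Hochberg adjustment over all 14022 genes tested. Total counts of the 6 libraries ran from 29294858 to 37457641. The sonidegib libraries stood far apart. The log2 CPM difference between them had an SD of 0.858 over 10957 genes, against 0.332 between the R14 libraries and 0.358 to 0.552 between clones. By the same measure sonidegib replicate 1 was closer to every Ofd1 library (0.672 to 0.768) than to sonidegib replicate 2, which lay 1.01 to 1.13 from the Ofd1 libraries. In sonidegib replicate 2 the level relative to other libraries fell with transcript length (r = -0.523 across genes, which are not independent), while in the other 10 libraries that r lay between -0.0809 and 0.174.

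The transcript of the mutated gene was still present in every clone. Ofd1 stood at 13.6, 23.4, 9.27 and 13.6 CPM in the clones and at 45.0 and 23.4 CPM under sonidegib, so the second R14 library and sonidegib replicate 2 overlapped. The log2 difference was -1.30 ± 0.41 (SE) with an edgeR adjusted p of 0.138. Sufu stood at 12.02 to 19.2 CPM in the clones and at 24.8 and 5.60 CPM under sonidegib, a log2 difference of 0.05 ± 0.60 (adjusted p = 0.967 by edgeR). Sonidegib replicate 1 lay above the clones and replicate 2 below them.

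Across all genes, 195 were higher and 61 lower in the clones than under sonidegib, which is 1.39% and 0.435% of those tested. At an unadjusted p under 0.05 the counts were 1625 higher (11.6%) and 1604 lower (11.4%), and DESeq2 called 1092 higher (7.57% of 14428 genes with an adjusted p) and 786 lower (5.45%). Every one of the 256 called genes changed by a log2 difference of at least 1, and all had a group order without overlap, which by itself was frequent: 18.9% of tested genes had all 4 Ofd1 libraries above both sonidegib libraries and 19.4% had all of them below. Adjusted p of the called genes ran from 0.0266 to 0.0495 by edgeR, close to the threshold. With edgeR, 0 genes were called when sonidegib replicate 2, clone R16 or clone R25 was left out (2540, 1846 and 2267 genes at an unadjusted p under 0.05), 3 when clone R14 was left out, and 3862 when sonidegib replicate 1 was left out. All 256 genes kept the direction of their difference against each sonidegib library alone, which their lack of overlap between the groups already implied.

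The called genes were then set beside untreated cells; since they were selected on the same clone and sonidegib libraries, these counts are a description. Of the 195 genes called higher, both sonidegib libraries were below all 3 untreated libraries for 170, and the mean of the clones was within the untreated range for 70, above it for 119 and below it for 6. Over all 14022 genes tested, both sonidegib libraries were below all 3 untreated libraries for 2277, and the mean of the clones was above the untreated range for 3683. Of the 61 genes called lower, both sonidegib libraries were above all 3 untreated libraries for 46, and the mean of the clones was below the untreated range for 48 and within it for 13, against 2513 genes with both sonidegib libraries above and 3091 with the mean of the clones below among all tested. Untreated replicate 3 stood apart from replicates 1 and 2 for many of these genes. It was above both for 60.0% of the genes called higher and below both for 80.3% of those called lower, against 43.1% and 41.4% of all genes tested. The 3 untreated values are therefore given singly for many genes below, though not for all, and the part of whatever set that library apart was not tested.

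Of the Hedgehog target genes, Gli1, Hhip and Bcl2 were among those called higher in the clones. Of 16 targets tested, 4 were called higher and 0 lower (0 lower also at an unadjusted p under 0.05 and by DESeq2, which called 8 higher). For 9 of the 16 all Ofd1 libraries lay above both sonidegib libraries, against 18.9% of all genes tested. The median log2 difference was 1.94 against -0.01 over all genes tested. Gli1, the transcription factor that is itself a direct read-out of the pathway, stood at 143, 126, 187 and 69.9 CPM in the clones and at 7.68 and 8.82 CPM under sonidegib. Its log2 difference was 3.99 ± 0.47 (edgeR adjusted p = 0.0312). The lowest clone, R25, was still several times above the higher sonidegib library, and all 4 clone libraries were below the untreated values of 224, 220 and 243 CPM.

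Hhip, a membrane protein that binds and sequesters Hedgehog ligands, stood at 64.1, 132, 220 and 285 CPM against 9.64 and 10.7 CPM (log2 difference 4.33 ± 0.52, adjusted p = 0.0312 by edgeR). Its levels varied several-fold among the clones, and R14 replicate 1 lay below the untreated Hhip values of 120, 86.4 and 138 CPM while R16 and R25 lay above them. Bcl2, which codes for an inhibitor of apoptosis, differed by a smaller and tighter step, at 166, 164, 137 and 171 CPM in the clones and 65.5 and 69.5 CPM under sonidegib (log2 difference 1.24 ± 0.22, adjusted p = 0.0466 by edgeR). Untreated cells gave 147, 168 and 189 CPM of Bcl2, so the clones were near the untreated level and sonidegib was below it.

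Several further targets had groups that did not overlap and still did not pass the test. Ptch1, the receptor mutated in this line and a target of its own pathway, stood at 65.5, 93.2, 81.5 and 108 CPM in the clones and at 37.5 and 1.19 CPM under sonidegib. On the log2 scale the values under sonidegib differed from each other by more than the clones differed from sonidegib replicate 1, and the edgeR adjusted p was 0.282. Ccnd1, which codes for cyclin D1, stood at 743, 647, 552 and 1419 CPM against 253 and 256 CPM (log2 difference 1.82 ± 0.44, adjusted p = 0.0854 by edgeR). Its spread lay in the clones, with R25 far above the others.

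Sox18, a transcription factor gene, stood at 155 to 210 CPM in the clones and 32.1 and 74.3 CPM under sonidegib, with an edgeR adjusted p of 0.067, and the clones remained below the untreated range of 247 to 318 CPM. Cdk6, a kinase partner of D-type cyclins, stood at 44.4 to 53.5 CPM against 26.9 and 7.03 CPM (edgeR adjusted p = 0.175). Prdm1 was low everywhere, at 0.901 to 2.47 CPM in the clones and 0.434 and 0.209 CPM under sonidegib (edgeR adjusted p = 0.103). Not every listed target followed this order. Ccnd2, Mycn, Sfrp1 and Igf2 overlapped between the groups, with log2 differences of 0.23, 0.12, -0.38 and -0.22 and edgeR adjusted p from 0.574 to 0.799. Foxa2, Foxf2 and Foxc2 also overlapped, at very low levels (adjusted p = 0.246, 0.155 and 0.33 by edgeR).

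**Figure D1:**
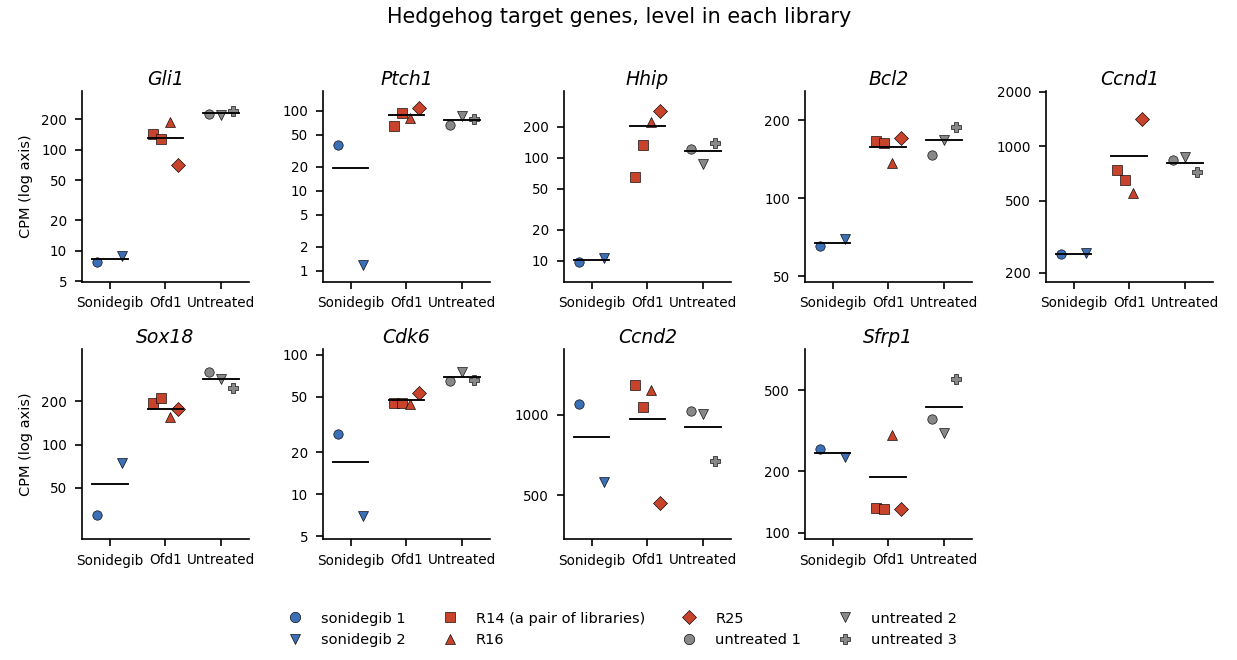
Level of 9 Hedgehog target genes in CPM (log axis) in the 2 sonidegib libraries, the 4 Ofd1-mutant libraries and the 3 untreated libraries; marker shapes give replicate or clone, and bars are group means (the Ofd1 bar counts R14 once). In the panels of Gli1, Hhip and Bcl2 every Ofd1 library lies above both sonidegib libraries by a clear gap, Ptch1 and Cdk6 show how far apart the sonidegib libraries are, and Ccnd2 and Sfrp1 overlap.

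Of 33 other genes of the Hedgehog machinery tested, 1 was called higher and 0 lower (5 higher and 4 lower at an unadjusted p under 0.05, 4 and 2 by DESeq2), with a median log2 difference of 0.05. The called gene was Cdon, which codes for a Hedgehog coreceptor. It stood at 8.29, 3.96, 7.02 and 10.5 CPM in the clones and at 0.801 and 0.507 CPM under sonidegib (log2 difference 3.60 ± 0.53, adjusted p = 0.0403 by edgeR). Untreated cells gave 1.39, 1.49 and 3.81 CPM, so the clones were also above each untreated library, R14 replicate 2 only just. The other coreceptor genes gave smaller differences that did not pass the test: Gas1 stood at 44.5 to 74.6 CPM against 25.9 and 35.7 CPM, and Boc at 302 to 403 CPM against 267 and 245 CPM (adjusted p = 0.0968 and 0.179 by edgeR). Gli2, the main activating Gli factor, stood at 256, 256, 311 and 603 CPM against 142 and 78.7 CPM (adjusted p = 0.0976), and Smo, which codes for the target of the drug, at 165 to 256 CPM against 298 and 313 CPM (adjusted p = 0.199, both by edgeR).

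Genes of the cell cycle formed the broadest group of rises. Of 64 S phase genes, 26 were called higher and 0 lower, and 63 had a positive log2 difference, with a median of 1.28. Of 65 G2/M genes, 18 were called higher and 0 lower, 64 were positive, and the median was 1.35. At an unadjusted p under 0.05 there were 55 S phase and 59 G2/M genes higher and 0 lower in either list, and DESeq2 called 47 and 54 higher and 0 lower. All Ofd1 libraries lay above both sonidegib libraries for 56 of 64 and 60 of 65 members, against 18.9% of all genes tested. Both lists moved as a block rather than through a few genes: the summed level of the S phase list was 9016 to 10703 CPM in the clones and 4142 to 4330 CPM under sonidegib, and that of the G2/M list 12395 to 15081 CPM against 5783 to 6982 CPM. Untreated cells gave 7761 to 10572 CPM and 11247 to 14436 CPM, so the clones' sums overlapped those of untreated cells in both lists. In bulk RNA, fewer cells of a kind and less RNA per cell cannot be told apart, here for cells in cycle.

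Exo1, an exonuclease of mismatch repair and replication forks, stood at 125, 138, 153 and 144 CPM in the clones and at 26.9 and 26.1 CPM under sonidegib. Replicates were close in both groups, and its log2 difference of 2.45 ± 0.22 carried an edgeR adjusted p of 0.0266. Cdc6, which loads the replicative helicase on origins, stood at 51.3, 59.7, 55.1 and 59.2 CPM against 14.5 and 14.7 CPM (log2 difference 1.97 ± 0.22, adjusted p = 0.0312 by edgeR). Rrm2, the regulated subunit of ribonucleotide reductase, stood at 89.3, 158, 125 and 92.9 CPM against 25.2 and 31.8 CPM, and Mcm5, a subunit of the helicase, at 189, 221, 214 and 221 CPM against 71.0 and 75.2 CPM. The activator gene E2f1 gave 102, 116, 125 and 99.5 CPM against 37.1 and 36.3 CPM (log2 difference 1.61 ± 0.22), and the called members also held E2f2 and the repressor E2f8. Untreated cells gave 103, 99.2 and 104 CPM of Exo1, below every clone library, and 68.6, 60.7 and 60.5 CPM of Cdc6, above every clone library.

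Among G2/M genes, Mybl2 and Foxm1, which code for transcription factors of the late cell cycle, were both called higher. Mybl2 stood at 43.3, 50.9, 60.7 and 46.5 CPM in the clones and at 15.2 and 15.3 CPM under sonidegib (log2 difference 1.76 ± 0.25, adjusted p = 0.0363 by edgeR). Foxm1 stood at 254, 334, 369 and 309 CPM against 118 and 89.1 CPM (1.66 ± 0.25, adjusted p = 0.0403 by edgeR). Aurkb, the kinase of the chromosomal passenger complex, gave 57.5 to 84.4 CPM against 26.3 and 24.2 CPM, and Ndc80, a kinetochore component, 71.6 to 111 CPM against 29.3 and 19.2 CPM. In all of these the 4 clone libraries lay above both sonidegib libraries. Mki67, the standard proliferation marker, had the same order at 636, 703, 850 and 731 CPM against 259 and 111 CPM, but the spread under sonidegib left it at an adjusted p of 0.059 by edgeR. Of 14 cell cycle inhibitors and pocket protein genes, 0 were called by edgeR (2 higher and 4 lower at an unadjusted p under 0.05, 1 and 2 by DESeq2). Rbl1, the pocket protein p107, stood at 65.8 to 97.3 CPM in the clones and 32.8 and 16.8 CPM under sonidegib, and Btg1, an antiproliferative gene, at 112 to 119 CPM against 194 and 235 CPM (adjusted p = 0.0627 and 0.0706 by edgeR).

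E2F factors bind sites such as TTTGGCGC, TTTCCCGC and TTTCGCGC, and the element TTTGAA (the cell cycle genes homology region, CHR) marks many late cell cycle promoters. Both were searched on both strands, overlapping matches included, in the RefSeq promoter table of build GRCm38.p6, which spans 250 bases before to 50 after each start. Of the called S phase genes, 22 of 26 had a promoter in the table and 12 of these (54.5%) held an E2F match, against 3.96% of 10236 tested genes with a promoter. Of the called G2/M genes, 16 of 18 had a promoter, and 11 of these (68.8%) held TTTGAA against 13.6%, while 0 of 16 held an E2F match. TTTGAA was also found for 5 of the 22 S phase genes. Over all 27025 genes in the table the shares were 2.12% for E2F and 20.2% for TTTGAA. The Gli site GACCACCCA was found in none of the 14 promoters that the table holds for 9 Hedgehog target genes (0 of 9 genes), against 0.293% of tested genes, so these letters are not in those windows. A match is a string of letters and not a measured site.

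To show how these matches sit at the start of transcription, 100-base stretches (70 bases before to 30 after the start, GRCm38.p6, from RefSeq, 5′ to 3′ on the gene's strand) are given for 4 called S phase genes, with the E2F match in capitals. They are the 4 of 22 (18.2%) with a whole match inside this stretch, against 1.36% of tested genes, and the matches of the other 8 of the 12 do not lie wholly inside it. Dtl codes for the substrate receptor of the ligase that degrades Cdt1 (chr1:191575515-191575614, minus strand), Mcm3 for a helicase subunit (chr1:20820283-20820382, minus), Clspn for a fork checkpoint adaptor (chr4:126556910-126557009, plus) and Hells for a chromatin remodeller (chr19:38930920-38931019, plus).
Dtl: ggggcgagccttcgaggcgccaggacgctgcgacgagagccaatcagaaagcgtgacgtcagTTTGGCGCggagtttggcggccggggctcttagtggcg
Mcm3: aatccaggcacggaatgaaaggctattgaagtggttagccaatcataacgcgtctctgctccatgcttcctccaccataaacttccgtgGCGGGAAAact
Clspn: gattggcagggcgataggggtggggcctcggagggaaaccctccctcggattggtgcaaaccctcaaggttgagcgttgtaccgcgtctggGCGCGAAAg
Hells: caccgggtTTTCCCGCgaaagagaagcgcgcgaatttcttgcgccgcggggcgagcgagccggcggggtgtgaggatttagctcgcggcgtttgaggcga
Dtl stood at 449, 520, 478 and 409 CPM in the clones and 193 and 160 CPM under sonidegib, and Mcm3 at 312, 351, 336 and 523 CPM against 105 and 75.0 CPM. Clspn stood at 60.0, 72.8, 103 and 88.4 CPM against 23.5 and 14.6 CPM, and Hells at 126, 141, 154 and 90.7 CPM against 37.3 and 27.6 CPM. None of the 4 overlapped between the groups.

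The same stretch is given for 5 of the 9 called G2/M genes (of 16) that hold TTTGAA inside it, with TTTGAA or its reverse complement in capitals. Cdc20 codes for an activator of the anaphase-promoting complex (chr4:118437314-118437413, minus), Kif11 for a kinesin that separates spindle poles (chr19:37376312-37376411, plus), Top2a for a DNA topoisomerase (chr11:99024160-99024259, minus), Hmmr for a spindle-associated protein (chr11:40733408-40733507, minus) and Cdca8 for a chromosomal passenger protein (chr4:124936888-124936987, minus).
Cdc20: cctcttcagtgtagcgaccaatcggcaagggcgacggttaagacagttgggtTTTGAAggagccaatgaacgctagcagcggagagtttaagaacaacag
Kif11: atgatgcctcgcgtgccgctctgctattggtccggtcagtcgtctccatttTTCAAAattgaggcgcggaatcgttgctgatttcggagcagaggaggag
Top2a: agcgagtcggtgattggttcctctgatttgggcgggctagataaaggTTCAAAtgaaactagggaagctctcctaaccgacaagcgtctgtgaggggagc
Hmmr: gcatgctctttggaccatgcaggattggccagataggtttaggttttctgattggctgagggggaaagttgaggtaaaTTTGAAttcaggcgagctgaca
Cdca8: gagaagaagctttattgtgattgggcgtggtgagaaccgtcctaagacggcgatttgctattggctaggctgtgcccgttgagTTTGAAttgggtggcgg
Cdc20 stood at 175, 188, 279 and 274 CPM in the clones and 86.7 and 77.1 CPM under sonidegib. Top2a stood at 639, 902, 860 and 934 CPM against 281 and 146 CPM, and Kif11 at 187, 222, 262 and 218 CPM against 88.7 and 60.2 CPM. Hmmr gave 104, 125, 130 and 152 CPM against 52.0 and 32.6 CPM, and Cdca8 101, 131, 204 and 158 CPM against 49.3 and 48.3 CPM. In each of the 5 the lowest clone library was R14 replicate 1 and still lay above both sonidegib libraries.

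**Figure D2:**
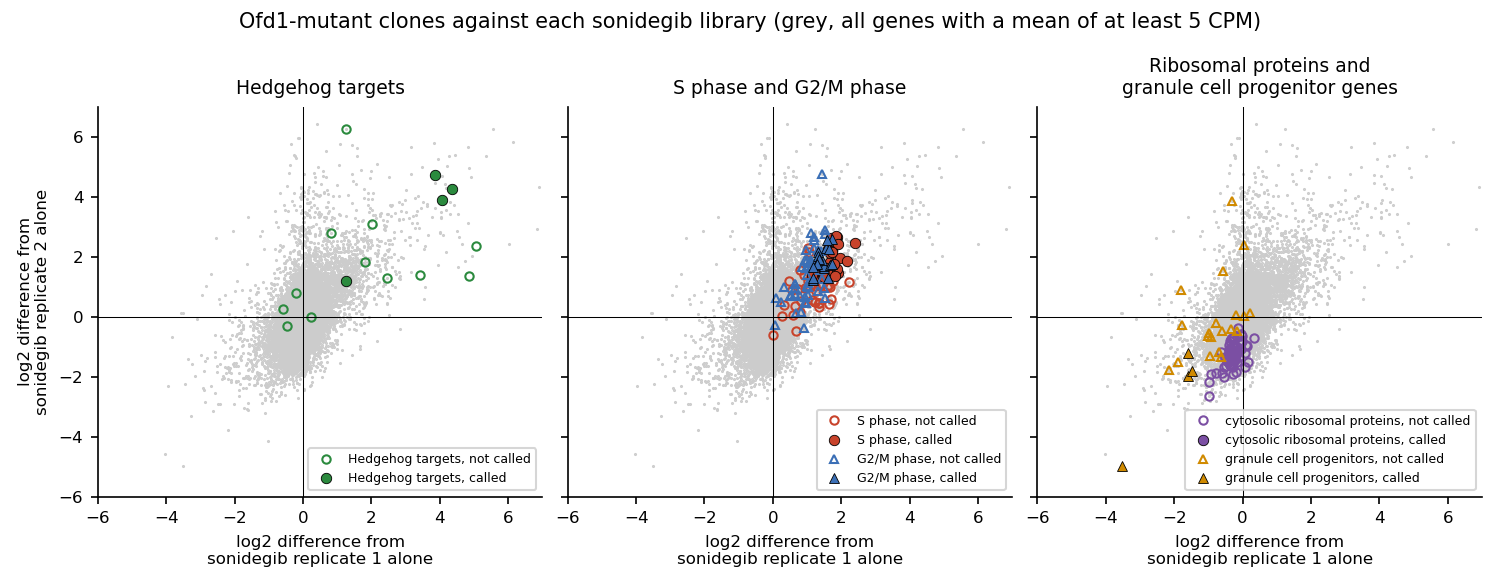
Log2 difference of the Ofd1-mutant clones from sonidegib replicate 1 alone (horizontal axis) and from replicate 2 alone (vertical axis), 1 point per gene, with grey points for every gene that averaged 5 CPM or more and lies inside the axes shown, filled markers for called members and open markers for the others. Panels show Hedgehog targets, cell cycle genes, and ribosomal protein and granule cell progenitor genes: nearly all S phase and G2/M genes lie in the upper right, while most ribosomal protein genes lie a little below 0 on the horizontal axis and further below it on the vertical one.

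The output genes Etv4, Dusp6, Spry4 and Egr3 of the ERK pathway were called higher in the clones. Of 25 on the list tested, these 4 were called higher and 0 lower (13 higher and 2 lower at an unadjusted p under 0.05, 10 and 1 by DESeq2). For 16 of the 25 all Ofd1 libraries lay above both sonidegib libraries, against 18.9% of all genes tested. The median log2 difference was 1.00. Its size depended on the sonidegib library: it was 0.54 against replicate 1 alone and 1.61 against replicate 2 alone. Etv4, an ETS transcription factor gene induced by fibroblast growth factor signalling, stood at 28.7, 39.8, 23.6 and 18.5 CPM in the clones and at 1.74 and 2.09 CPM under sonidegib (log2 difference 3.75 ± 0.40, edgeR adjusted p = 0.0312). Untreated cells gave 4.05, 3.53 and 24.6 CPM, so untreated replicate 3 was at the level of the clones and the other untreated libraries near that of sonidegib.

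Dusp6, the phosphatase that removes the activating phosphates of ERK, stood at 109, 116, 98.8 and 52.4 CPM against 12.5 and 9.59 CPM (3.00 ± 0.40, adjusted p = 0.0355 by edgeR), and untreated cells gave 44.4, 43.3 and 65.7 CPM, the last above R25. Spry4, a feedback inhibitor, stood at 28.3, 29.9, 41.4 and 20.8 CPM against 5.41 and 2.83 CPM. Egr3 was low, at 0.652, 4.92, 6.63 and 3.22 CPM against 0.100 and 0.0894 CPM, and the lowest value of the clones was the first of the R14 libraries. Immediate early gene Fos went the other way, at 3.59 to 5.47 CPM in the clones against 7.24 and 30.6 CPM under sonidegib, with an adjusted p of 0.104 by edgeR.

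Epha8, Pappa and Adamts15 were among the largest called rises. Epha8, an ephrin receptor tyrosine kinase, stood at 94.8, 58.2, 136 and 226 CPM in the clones and at 2.04 and 2.59 CPM under sonidegib (log2 difference 5.999 ± 0.59, edgeR adjusted p = 0.0266). Pappa, a protease that cleaves binding proteins of insulin-like growth factors, stood at 5.96, 6.75, 24.4 and 17.4 CPM against 0.334 and 0.209 CPM (5.89 ± 0.79, adjusted p = 0.0355 by edgeR). Adamts15, a secreted metalloprotease, stood at 22.9, 24.5, 30.6 and 49.98 CPM against 0.834 and 0.864 CPM (5.37 ± 0.48, adjusted p = 0.0266 by edgeR). In all 3, R14 gave the lower clone values. Untreated replicate 3 was above replicates 1 and 2 in each: 10.4, 8.95 and 60.3 CPM of Epha8, 1.55, 1.89 and 7.94 CPM of Pappa, and 1.58, 1.70 and 8.74 CPM of Adamts15.

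Sorl1, a sorting receptor of the Vps10p family, stood at 46.7, 45.8, 49.0 and 123 CPM against 3.70 and 1.79 CPM, with R25 apart from the other clones. Untreated cells gave 12.9, 13.9 and 52.2 CPM of Sorl1, so untreated replicate 3 was above the R14 and R16 libraries. Fat2, an atypical cadherin of cerebellar granule cells, varied widely among the clones, at 81.8, 26.4, 8.78 and 38.4 CPM against 1.10 and 1.34 CPM. Its log2 difference was 4.80 ± 0.84 and its adjusted p 0.0473 by edgeR. Untreated cells gave 5.70, 8.31 and 19.5 CPM of Fat2, the last above R16. Mmp15, a membrane-type matrix metalloprotease, was tighter at 39.7, 39.6, 44.7 and 68.6 CPM against 2.77 and 2.62 CPM (4.26 ± 0.37). Untreated cells gave 9.05, 9.90 and 30.04 CPM of Mmp15.

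Fhl1, Fbn2 and Lonrf3 had no untreated library near the clones. Fhl1, a LIM domain protein, stood at 29.7, 15.6, 6.40 and 29.2 CPM in the clones, at 1.03 and 0.596 CPM under sonidegib and at 1.58, 1.04 and 0.502 CPM in untreated cells. Fbn2, which codes for the microfibril protein fibrillin 2, stood at 9.81, 12.01, 13.9 and 6.28 CPM, against 0.667 and 0.268 CPM under sonidegib and 1.77, 2.02 and 2.33 CPM untreated. Lonrf3, a RING finger gene, stood at 15.7, 26.8, 24.5 and 32.7 CPM, against 2.34 and 0.834 CPM under sonidegib and 3.01, 4.91 and 2.69 CPM untreated. These genes separated the clones from all parental libraries, treated or not. Over all genes called higher, 50 of 195 had the 4 Ofd1 libraries above all 3 untreated libraries as well, against 861 of 14022 genes tested, a set chosen in part for high values in the same 4 libraries.

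**Figure D3:**
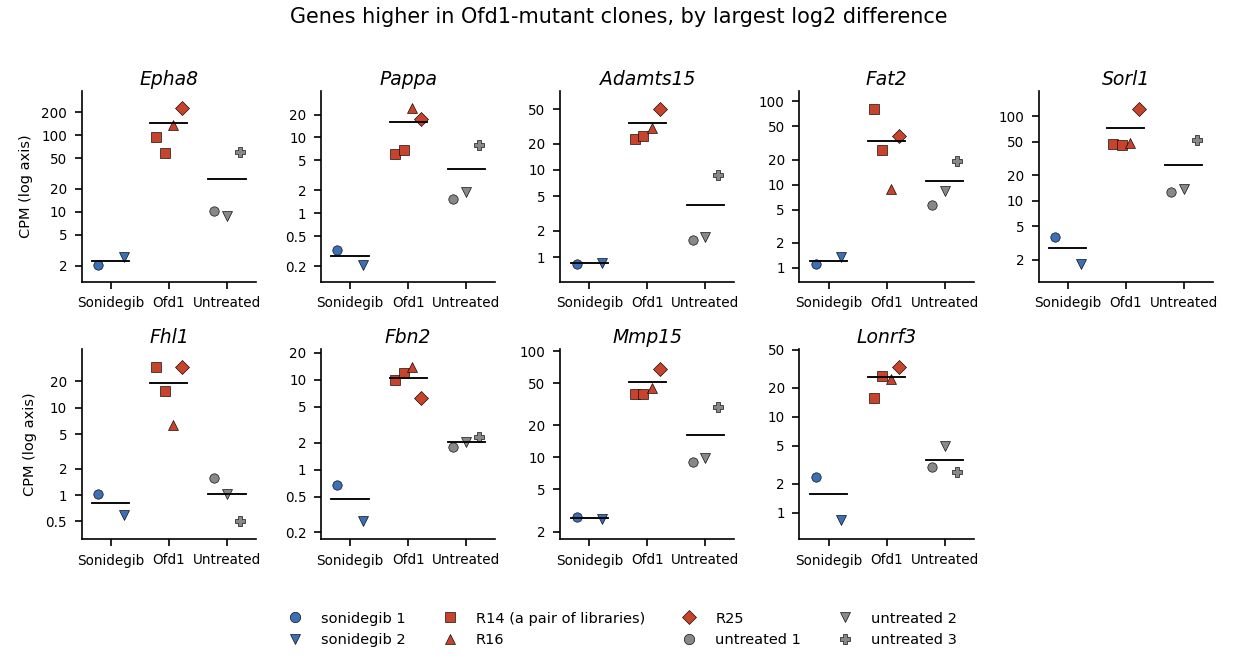
Level in CPM (log axis) of 9 named genes from those with the largest called rises, in the 2 sonidegib, 4 Ofd1-mutant and 3 untreated libraries; marker shapes give replicate or clone and bars are group means. All Ofd1 libraries lie above both sonidegib libraries, untreated replicate 3 lies nearest to the clones for Epha8, Pappa, Adamts15 and Sorl1, and all untreated libraries lie below the clones for Fhl1, Fbn2 and Lonrf3.

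Axon guidance genes moved in both directions. Of 53 tested, 5 were called higher (Epha8, Slit3, Plxna2, Nrp2 and Sema4d) and 1 lower (Efna4), against 1.39% and 0.435% of all genes tested. The median log2 difference was 0.32. Slit3, a secreted repellent, stood at 13.8, 11.6, 9.01 and 16.1 CPM in the clones and at 0.634 and 0.894 CPM under sonidegib (4.06 ± 0.48, edgeR adjusted p = 0.0312). Plxna2, a semaphorin receptor, stood at 527, 268, 241 and 438 CPM against 56.6 and 51.3 CPM (2.75 ± 0.34), close to the untreated 227 to 286 CPM in R14 replicate 2 and R16. Efna4, an ephrin ligand, stood at 19.2, 24.5, 23.5 and 22.7 CPM against 65.2 and 94.0 CPM (-1.79 ± 0.23, adjusted p = 0.033 by edgeR), near the untreated 29.7, 29.6 and 24.5 CPM.

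Of 59 matrix and adhesion genes, 5 were called higher (Mmp15, Fbn2, Cdh4, Lama5 and Adamts1) and 1 lower (Itga7), against 1.39% and 0.435% of all genes tested. Their median log2 difference was 0.42. Lama5, a laminin chain, stood at 278, 290, 414 and 465 CPM against 87.0 and 40.2 CPM. Cdh4, a classical cadherin, stood at 92.4, 75.4, 76.2 and 68.7 CPM against 31.1 and 26.4 CPM. Itga7, a laminin-binding integrin chain, stood at 19.2, 21.9, 29.1 and 28.5 CPM against 112 and 113 CPM (-2.09 ± 0.24, adjusted p = 0.0312 by edgeR), so laminin-related genes were called in both directions.

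In the Notch pathway, 3 of 20 genes were called higher and 0 lower (6 higher and 6 lower at an unadjusted p under 0.05, 6 and 5 by DESeq2). They were the ligands Jag1 and Jag2 and the glycosyltransferase Lfng, which modifies the receptors. Jag1 stood at 313, 300, 360 and 287 CPM in the clones and at 84.8 and 83.5 CPM under sonidegib (1.93 ± 0.22, edgeR adjusted p = 0.0312). Untreated cells gave 295, 265 and 197 CPM. Jag2 stood at 36.6, 56.0, 34.7 and 21.1 CPM against 3.904 and 5.39 CPM, with untreated replicate 3 (29.6 CPM) again among the clones and replicates 1 and 2 (5.92 and 7.81 CPM) near sonidegib. Lfng stood at 19.1 to 29.98 CPM against 4.24 and 6.495 CPM. Hes1, the classical effector gene of the pathway, overlapped between the groups.

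Of 30 genes of Wnt signalling, the receptor gene Fzd1 was called higher and the transcription factor Tcf7l2 and the ligand Wnt5a lower. Shares over all genes tested were 1.39% higher and 0.435% lower. Fzd1 stood at 57.9, 50.3, 51.0 and 73.9 CPM against 18.8 and 13.1 CPM. Tcf7l2 stood at 3.63, 4.12, 4.23 and 5.86 CPM against 17.0 and 25.6 CPM (-2.17 ± 0.35, edgeR adjusted p = 0.0432), below the untreated 16.1, 15.7 and 10.7 CPM. Wnt5a stood at 11.02 to 16.03 CPM against 73.3 and 32.1 CPM. Of 22 genes of BMP and TGF-beta signalling, 0 were called by edgeR (5 higher and 2 lower at an unadjusted p under 0.05, 5 and 1 by DESeq2). Id2, a BMP target, stood at 105 to 122 CPM against 176 and 271 CPM, and the BMP mediator Smad5 at 115 to 125 CPM against 79.1 and 55.2 CPM.

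A few genes on the granule cell progenitor list were called lower in the clones than under sonidegib. The list also holds factors of migrating precursors and of newly formed neurons. Of 24 listed genes tested, 4 were called lower and 0 higher (0 higher also at an unadjusted p under 0.05 and by DESeq2, which called 10 lower). For 13 of the 24 all Ofd1 libraries lay below both sonidegib libraries, against 19.4% of all genes tested. The median log2 difference was -0.81. The lineage was expressed in both groups: Atoh1, its defining transcription factor, stood at 437 to 561 CPM in the clones and at 962 and 727 CPM under sonidegib (edgeR adjusted p = 0.136), and Zic1 at 517 to 686 CPM against 581 and 607 CPM. Barhl1, a homeobox factor of migrating granule precursors, stood at 486, 311, 211 and 307 CPM in the clones and 917 and 1223 CPM under sonidegib (-1.79 ± 0.31, adjusted p = 0.0456 by edgeR). Nhlh1, a helix-loop-helix factor of newly formed neurons, stood at 182, 151, 174 and 167 CPM against 468 and 605 CPM (-1.65 ± 0.21, adjusted p = 0.0312 by edgeR). Untreated cells gave 336, 257 and 164 CPM of Nhlh1, so untreated replicate 3 was at the level of the clones and the other untreated libraries lay between the groups.

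Insm1, a zinc finger factor of neuronal progenitors, stood at 41.7, 34.5, 34.0 and 28.8 CPM against 101 and 79.1 CPM. The fourth called gene of the progenitor list, Mfap4, codes for a matrix protein. It had the largest named fall, to 8.85, 6.59, 12.7 and 7.68 CPM from 106 and 297 CPM (-4.40 ± 0.48, adjusted p = 0.0312 by edgeR), with untreated cells at 20.3, 38.4 and 7.56 CPM. Of 53 genes of granule neuron differentiation, 1 was called lower and 1 higher (14 lower and 7 higher at an unadjusted p under 0.05, 12 and 5 by DESeq2). Of these 53 genes, 32 were negative and 21 positive, with a median log2 difference of -0.34. Tubb3, the neuronal beta-tubulin, stood at 45.4, 64.1, 47.1 and 35.1 CPM against 204 and 165 CPM (-2.003 ± 0.25). Untreated cells gave 132, 88.3 and 43.7 CPM of Tubb3, the last among the clones. Etv1, a transcription factor of maturing granule cells, stood at 28.8, 30.7, 23.9 and 26.9 CPM against 8.21 and 7.24 CPM (1.81 ± 0.27). Vim, the intermediate filament vimentin of neural stem cells, was the 1 called gene of 20 on that list, at 113, 122, 68.6 and 81.9 CPM against 330 and 405 CPM (-2.02 ± 0.28, adjusted p = 0.0363 by edgeR), and untreated cells gave 298, 287 and 88.0 CPM.

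Further named falls were genes of varied function. Pvalb, a calcium-binding protein of some neurons, stood at 15.1, 13, 2.41 and 3.35 CPM in the clones and at 109 and 164 CPM under sonidegib (-4.34 ± 0.75, edgeR adjusted p = 0.0461), with both R14 libraries above R16 and R25. Untreated cells gave 52.0, 47.7 and 5.70 CPM of Pvalb, the last among the clones. Trnp1, a nuclear regulator of neural progenitors, stood at 17.9, 16.6, 12.7 and 11.96 CPM against 85.6 and 126 CPM (-2.90 ± 0.28, adjusted p = 0.0266 by edgeR), and Eln, which codes for elastin, at 9.50, 4.86, 8.78 and 4.31 CPM against 48.6 and 49.2 CPM. Untreated cells lay between the groups for Eln (13.7, 24.5 and 13.9 CPM) and Trnp1 (23.1, 21.8 and 25.7 CPM). Mgst1, a membrane glutathione transferase, fell from 110 and 47.6 CPM to 8.23 to 15.1 CPM. Untreated cells gave 71.4, 75.7 and 13.2 CPM of it.

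The other named falls were Shisa9 (an auxiliary subunit of AMPA receptors), Rnd2 (a small GTPase of migrating neurons), Rdh5 (a retinol dehydrogenase), Fbxo2 (a neuronal F-box protein), Slc39a11 (a zinc transporter) and Gdap1l1. Their log2 differences ran from -2.70 for Shisa9 to -2.16 for Gdap1l1, and none overlapped between the groups. Fbxo2 is an example of a fall whose size rested on the choice of sonidegib library: it stood at 30.8 to 36.7 CPM in the clones and at 98.7 and 247 CPM under sonidegib, and its log2 difference was -1.60 against replicate 1 alone and -2.89 against replicate 2 alone. Slc39a11 differed little in this respect, at -2.32 and -2.05.

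**Figure D4:**
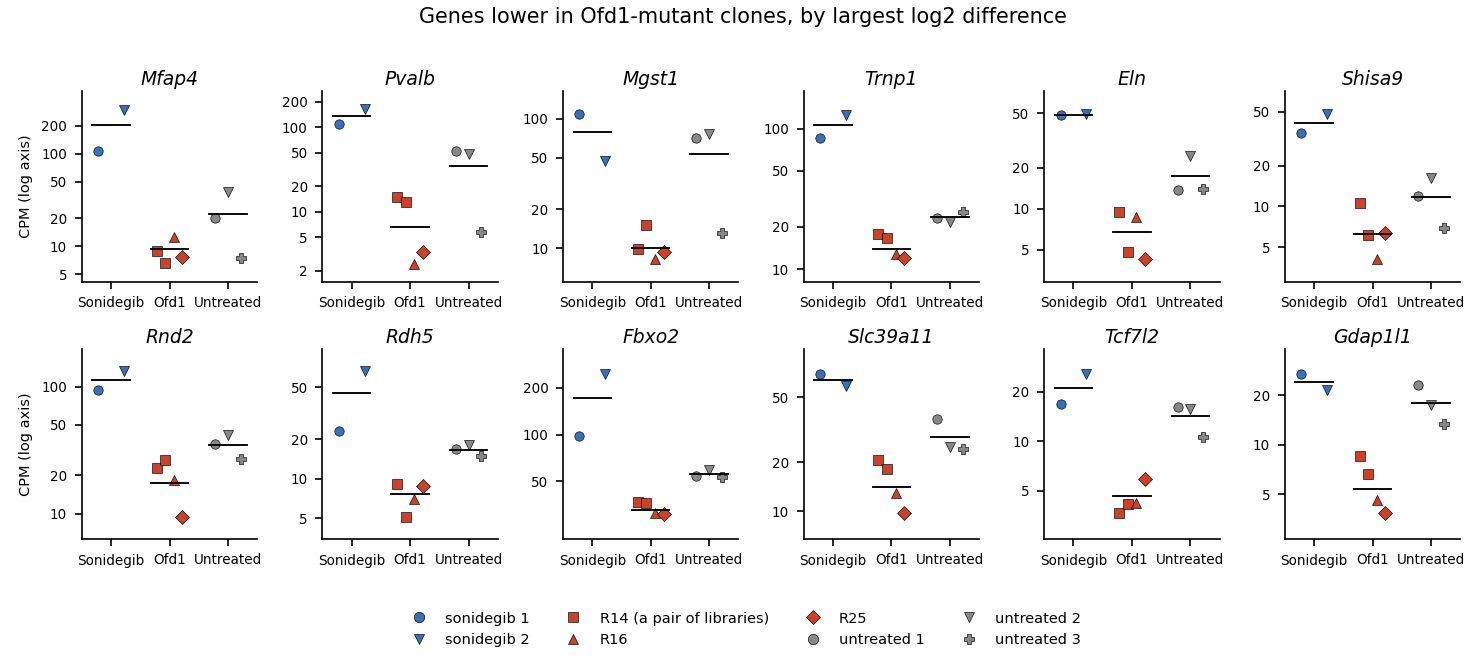
Level in CPM (log axis) of the 12 named genes with the largest called falls in the 2 sonidegib, 4 Ofd1-mutant and 3 untreated libraries; marker shapes give replicate or clone and bars are group means. All Ofd1 libraries lie below both sonidegib libraries, and untreated replicate 3 lies within or near the clones for Mfap4, Pvalb, Mgst1 and Shisa9 while the other untreated libraries lie higher.

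Genes of the cilium and the centriole differed by less. Of 56 genes of ciliary transport and the transition zone, 0 were called by edgeR (10 lower and 0 higher at an unadjusted p under 0.05, 5 lower and 0 higher by DESeq2). Of the 56, 45 were negative, with a median log2 difference of -0.39. For 22 of them all Ofd1 libraries lay below both sonidegib libraries, against 19.4% of all genes tested. The lowest p belonged to Arl3, a GTPase that unloads lipidated cargo in cilia, at 27.0, 34.5, 28.9 and 39.6 CPM against 60.2 and 107 CPM, and Ttc8, a BBSome subunit, at 10.5, 12.01, 11.02 and 9.84 CPM against 20.6 and 27.4 CPM (adjusted p = 0.0754 and 0.0788 by edgeR). Of 39 centriole and ciliary base genes, 1 was called higher and 0 lower (10 higher and 2 lower at an unadjusted p under 0.05, 5 and 1 by DESeq2). Of the 39, 30 were positive, with a median of 0.29. The called gene was Wdr67, at 41.1, 60.2, 65.1 and 59.9 CPM against 24.99 and 22.02 CPM.

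Among stress and metabolic genes, 32 of 35 of the integrated stress response were positive with a median of 0.95, but 2 were called higher and 0 lower (0 lower also at an unadjusted p under 0.05 and by DESeq2, which called 12 higher). Slc7a5, an amino acid transporter, stood at 747, 1041, 1264 and 490 CPM against 143 and 166 CPM, and Vldlr, a lipoprotein receptor, at 186, 240, 363 and 351 CPM against 99.9 and 96.5 CPM. Chac1 and Trib3, targets of the factors Atf4 and Chop, varied widely among the clones, at 3.42, 36.9, 76.6 and 18.5 CPM of Chac1 and 6.02, 45.1, 86.3 and 23.4 CPM of Trib3, with R14 replicate 1 within or next to the sonidegib values. Of 29 cholesterol synthesis genes, 1 was called higher and 0 lower (12 higher and 1 lower at an unadjusted p under 0.05, 6 and 0 by DESeq2). Of the 29, 23 were positive, and the median log2 difference was 0.45. Of 34 glycolysis and hypoxia genes, 0 were called by edgeR (2 higher and 3 lower at an unadjusted p under 0.05, 2 and 0 by DESeq2). The mitophagy receptor gene Bnip3l, for example, stood at 219 to 379 CPM against 480 and 476 CPM (adjusted p = 0.152 by edgeR).

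All 72 cytosolic ribosomal protein genes were lower in the clones, with a median log2 difference of -0.84 and 0 called by edgeR (46 lower and 0 higher at an unadjusted p under 0.05, 11 and 0 by DESeq2). Rpl41, for example, stood at 371, 357, 325 and 395 CPM in the clones and at 706 and 2308 CPM under sonidegib, with the sonidegib libraries further apart than the clones. The list summed to 22599.9 to 29997.5 CPM in the clones, 31593.9 to 62228.5 CPM under sonidegib and 29820.7 to 35034.2 CPM in untreated cells. The mean of the clones was below the untreated range for 58 of the 72 genes, within it for 12 and above it for 2 (below for 3091 of 14022 genes tested). These transcripts are short, with a median length of 1100 bases against 3380 over all genes tested. The median was -0.29 against sonidegib replicate 1 alone, -1.27 against replicate 2 alone and -0.41 with the trend on transcript length removed. Against replicate 1 alone, 66 genes were negative and 6 positive. The level also moved with transcript length in sonidegib replicate 2 (r = -0.523 across genes), and its part in this difference was not tested beyond these values.

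Other lists gave few calls in number, where 1.39% of all genes tested were called higher and 0.435% lower. Of 8 drug efflux transporters, 0 were called by edgeR (1 higher and 1 lower at an unadjusted p under 0.05, 1 and 1 by DESeq2). Abcg2 stood at 1.33 to 2.60 CPM in the clones and 9.74 and 3.61 CPM under sonidegib, and Abcb1b at 0.585 to 2.49 CPM against 0.2002 and 0 CPM. Of 26 p53 targets, Eda2r, a receptor of the tumour necrosis factor family, and Gtse1, which is also among the called cell cycle genes, were called higher. Eda2r stood at 66.9, 56.7, 91.4 and 65.7 CPM against 11.1 and 6.67 CPM (3.04 ± 0.36, adjusted p = 0.0312 by edgeR). In the insulin-like growth factor axis Pappa was the 1 called gene of 19. Igfbp5, a binding protein of those factors, was far lower in every clone library, at 133, 40.0, 39.5 and 273 CPM against 852 and 678 CPM, and did not pass the test (adjusted p = 0.12 by edgeR).

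Channel, immune, chromatin and apoptosis genes gave few calls in number, beside 1.39% called higher and 0.435% called lower over all genes tested. Of 55 neuronal ion channel genes, Kcnma1, a calcium-activated potassium channel, and the calcium channel Cacna1c were called higher and Scn3b lower. Kcnma1 stood at 7.92, 3.56, 5.49 and 10.4 CPM against 0.234 and 0.149 CPM (5.23 ± 0.63). Of 22 interferon response genes H2-K1 was called higher, at 22.9 to 29.2 CPM against 5.41 and 9.15 CPM, with untreated cells at 5.92, 8.20 and 24.6 CPM. Of 26 DNA methylation and Polycomb genes Uhrf1, a partner of the maintenance methyltransferase that is also on the S phase list, was called higher, at 234, 333, 350 and 211 CPM against 81.2 and 84.6 CPM. Of 24 genes of the Bcl2 family, Bcl2 itself was the 1 called.

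Markers of other cell types differed in how far they were detected: those of microglia and endothelium were near 0, while several glial markers were well expressed. Of 15 microglia and macrophage markers, 1 (Cd68) passed the filter on low counts, and their summed level was 1.15 to 1.98 CPM in the clones and 1.54 to 2.17 CPM under sonidegib; P2ry12, C1qa and C1qc had 0 counts in all 6 libraries. The 14 endothelial markers, 6 of them tested, summed to 5.97 to 16.4 CPM against 2.90 to 4.62 CPM, with Cldn5 and Sox17 at 0 counts. Of those tested, 0 were called by edgeR (1 higher and 0 lower at an unadjusted p under 0.05, 1 and 0 by DESeq2). Cdh5, the endothelial cadherin, stood at 3.17, 12.5, 3.54 and 1.89 CPM against 0.133 and 0.536 CPM (adjusted p = 0.0884 by edgeR). The 15 fibroblast and pericyte markers, 8 of them tested, summed to 38.2 to 59.5 CPM against 30.3 to 42.6 CPM. Thy1, also a surface protein of neurons, was the 1 called higher. Of oligodendrocyte lineage markers, 8 of 15 were tested, 5 with a positive and 3 with a negative log2 difference. Of these, 1 was called higher and 0 lower (3 higher and 1 lower at an unadjusted p under 0.05, 2 and 1 by DESeq2). The called marker Pdgfra, a growth factor receptor, stood at 247, 410, 255 and 219 CPM against 50.3 and 79.6 CPM (2.06 ± 0.31), and at 146, 148 and 364 CPM untreated. Mag had 0 counts in the 6 libraries.

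Of 14 astrocyte markers, 9 were tested, and the whole list summed to 448 to 579 CPM in the clones and 599 to 832 CPM under sonidegib. Of those tested, 2 had a positive and 7 a negative log2 difference. Gdf10, a growth factor of Bergmann glia, was the 1 called gene, at 1.93, 1.39, 2.76 and 1.27 CPM against 0.0667 and 0.0298 CPM. Gfap, the astrocyte intermediate filament, stood at 19.8, 17.1, 10.4 and 2.36 CPM in the clones and at 101 and 106 CPM under sonidegib, with untreated cells at 14.02, 15.9 and 35.5 CPM and an adjusted p of 0.0678 by edgeR. The part of a change in cell types in these differences was not tested.

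**Figure D5:**
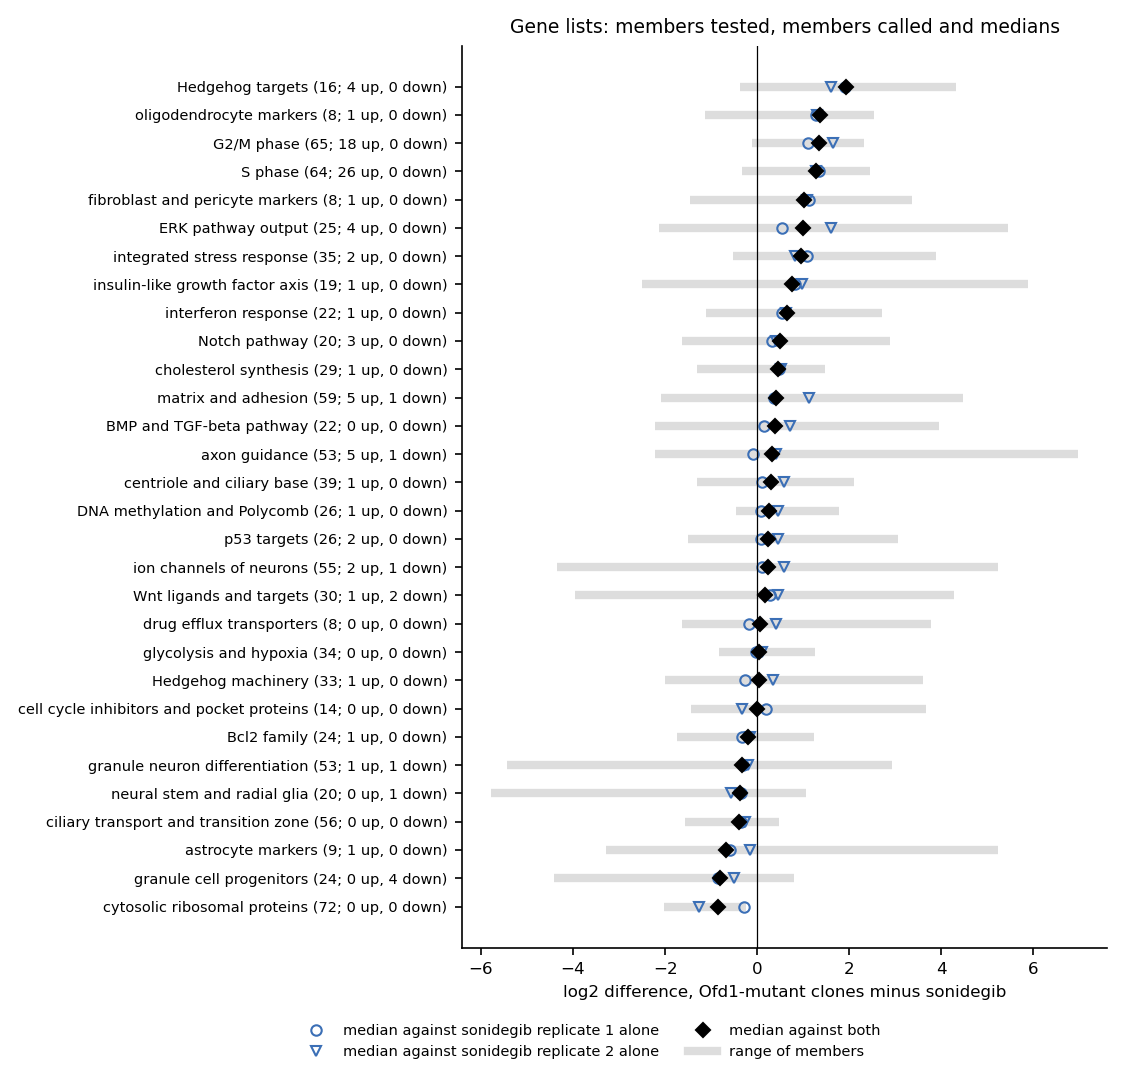
Median log2 difference (clones minus sonidegib) of the 30 gene lists with at least 8 members tested, against both sonidegib libraries (filled) and against each alone (open); grey bars span the members, and brackets give members tested and called. Hedgehog targets and the S phase and G2/M lists have positive medians against either sonidegib library, and the ERK output and ribosomal protein medians differ widely between the sonidegib libraries.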

How the data were processed

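The authors deposited raw counts of reads per gene symbol, 1 column per library. Per the labels' protocols, 500 ng of RNA went into each stranded poly(A) library, and all were sequenced together as single reads of 75 bp. Per the submitters' processing notes, STAR, DESeq2 and mm9 were used; not given in the sources used here are the counting tool, the annotation and any version. A row naming no gene (0.0131% to 0.0192% of counts) was left out, leaving 22619 genes.

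From the counts, the fit compared 3 clones (R14's libraries summed) with 2 sonidegib libraries by edgeR 4.0.16 in R 4.3.3 (filterByExpr, TMM, robust quasi-likelihood test, two-sided). DESeq2 1.42.0 was an alternative. Procedures were tested on simulated data in which every gene had the same spread and no library had a trend on transcript length. That setting does not show how they behave with sonidegib libraries as far apart as these. CPM used TMM-scaled totals over all 11 libraries. Transcript lengths came from GENCODE M21 by symbol (94.2% of tested genes). Promoter coordinates are GRCm38.p6, not the mm9 of the reads. Totals of the series ran from 24308451 to 38241595 counts. Reads carry no molecular identifiers, so values carry at least their counting error.

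The groups and the 32 gene lists (1108 entries, 975 tested) were chosen with earlier results of these data known. The text names Ofd1, Sufu, Hedgehog targets tested, up to 12 called genes per direction by largest log2 difference (at least 1, mean of at least 5 CPM, no overlap, predicted symbols passed over), and up to 4 called members per list, or 2 uncalled ones. Other genes named were chosen after their values were seen. A few results under the rule are not reported here. Alternatives were other normalization, filter, tool, length correction, a shared fit, a replicate block and leaving out each library or R14.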

Additional observations from a re-analysis of the deposited data

Results flagged for a closer look

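Among the 4 Ofd1 libraries, 1 library stood apart from the other 3 for 3 of the 97 named genes. The measure was the size of its gap relative to the range of the group. For 4 independent values chance alone flags about 1 in 20 groups. The R14 libraries are 1 clone and not independent, so that rate does not hold here. Sorl1 was 122.6 CPM in R25 against 45.8 to 49.0 CPM in R14 and R16. Sfrp1, which codes for a secreted Wnt inhibitor, was 300.7 CPM in R16 against 130.4 to 132.4 CPM in R14 and R25. Cdk6 was 53.5 CPM in R25 against 44.4 to 45.2 CPM in the others.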

How the results depend on the processing

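The count of called genes depended strongly on the setting. Against 256 (195 higher, 61 lower), it was 900 (556, 344) with the R14 libraries as separate samples, 1195 (659, 536) with all 4 groups in 1 fit, 1878 (1092, 786) with DESeq2, 500 (367, 133) with no filter on low counts and 545 (367, 178) with the length trend removed. Leaving out 1 library gave 0 to 3862 calls (0 to 1945 higher, 0 to 1917 lower), with the highest count without sonidegib replicate 1 and 0 without sonidegib replicate 2, R16 or R25; a lone sonidegib library was assumed to vary like the clones. Without clone R14 there were 3 (2, 1), all among the 256. RLE size factors gave 260. All 256 kept their sign under these settings, apart from 4 with no transcript length, which had no value with the length trend removed. None of the 256 overlapped between the groups, so their sign was nearly fixed in advance and is no separate evidence.

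With a replicate block on R14 and sonidegib replicates 1 and 2, 780 genes were called (541 higher, 239 lower), 241 of them among the 256. The 2 pairs share only a number: the correlation of their deviations across 10957 genes was 0.157.

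The Hedgehog target median ran from 1.40 (without R25) to 2.18 (without R16) over the left-out libraries. Sign changed for genes near 0. Sufu was -0.033 with the R14 libraries as separate samples and -0.023 with the length trend removed, and over the left-out libraries it ran from -0.68 (without sonidegib replicate 2) through -0.13 (without R25) to 1.51 (without sonidegib replicate 1). Ccnd2 was -0.029 with the length trend removed and ran from -0.20 to 0.80 without sonidegib replicates 2 and 1. Mycn was -0.0034 without sonidegib replicate 1 and ran from -0.053 without R16 to 0.27 without R25. Igf2 was 0.28 with the replicate block and 0.0023 without R25, and ran from -0.59 to 0.26 without sonidegib replicates 2 and 1. The cause was not tested.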
